A study of Mus musculus with 18 samples.

Results

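Macrophages of the mouse small intestine that carried a fluorescent protein made by epithelial cells were compared with macrophages of the same gates that did not. The comparison covered 2 macrophage populations at once. The members were the 12 of 18 arrays whose sample titles name CD11b and CD64, with or without CD103. They hold 6 arrays of GFP-plus macrophages and 6 of GFP-minus macrophages, 3 in each population, and population entered the model as a covariate. The other 6 arrays, from CD103 dendritic cells, were not used. All cells came from VDTR mice, in which epithelial cells of the intestine make a diphtheria toxin receptor joined to green fluorescent protein (GFP), a strain known to use the villin promoter. GFP in a sorted phagocyte therefore serves as the sign of epithelial material inside it or on it.

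The 4 groups were GFP-plus and GFP-minus CD103 CD11b CD64 macrophages and GFP-plus and GFP-minus CD11b CD64 macrophages, all gated as live CD45+ CD11c+ MHCII+ cells. Every group, the GFP-minus ones included, came from toxin-treated mice of this strain: diphtheria toxin was given intraperitoneally at 2 ng per kg and the mice were killed after 4 hours. No group without toxin was used, so the comparison is between cells with and without GFP and not between injured and uninjured tissue. The labels name male and female mice and give no age. They do not say whether the 3 arrays of a group came from separate mice, and every sample is labelled with an n value of 4 that is not explained, so p-values reflect only how much these arrays differ among themselves, which may be technical. In sorted bulk samples, fewer cells of a type and less RNA per cell cannot be told apart.

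Macrophages recognise dying cells through receptors for phosphatidylserine and through bridging proteins, engulf them, and break the cargo down in phagosomes that fuse with lysosomes. The lipid and iron set free are stored or exported. In the intestine, macrophages are renewed by blood monocytes that carry Ly6C and the chemokine receptor CCR2 and lose both as they mature into resident cells with CX3CR1, MerTK and, in a long-lived subset, Tim-4.

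RNA was hybridised to Affymetrix mouse gene arrays. The deposited values are relative to each probe's own median over the 18 arrays, on a scale taken here as log2, so a value of 0 is that median and a gene's level cannot be set against another gene's. The interquartile range of the 22180 genes ran from 0.272 to 0.543 over the 12 arrays. Estimated array weights ran from 0.305 to 2.60, and 3 arrays lay under 0.6: GFP-plus CD103 CD11b CD64 replicate 1, GFP-minus CD103 CD11b CD64 replicate 2 and GFP-minus CD11b CD64 replicate 1. The sort markers were checked first. Itgae, which encodes CD103, lay at -0.44, -0.15 and 0.05 on the GFP-plus arrays of the CD103 gate, against 3.44, -0.43 and 2.66 on its GFP-minus arrays. In the gate without CD103 it lay between -0.44 and -0.29 on GFP-plus arrays and between -0.53 and -0.05 on GFP-minus arrays. At the RNA level, only 2 of the 6 arrays of the CD103 gate, both GFP-minus, stood clearly above the arrays of the gate without CD103. The Itgae difference between GFP-plus and GFP-minus macrophages was -1.05 ± 0.60 (SE) and did not pass (limma, adjusted p = 0.533). Cd24a, a marker gene of the dendritic cell gate, lay at 1.65 and 1.37 on the same 2 GFP-minus arrays, and its difference was -1.24 ± 0.48 (limma, adjusted p = 0.311). Ptprc, which encodes CD45, was at 0.86 ± 0.24 and Fcgr1, which encodes CD64, at -0.25 ± 0.11 (limma, adjusted p = 0.191 and 0.371). Itgax (CD11c) was at 0.48 ± 0.25, H2-Ab1 (MHC class II) at -0.055 ± 0.066 and Itgam (CD11b) at 0.055 ± 0.16 (limma, adjusted p = 0.476, 0.794 and 0.930). None of the 7 sort markers passed, and unadjusted p-values of Ptprc, Cd24a and Fcgr1 were 0.00442, 0.0246 and 0.0397.

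Macrophages with epithelial GFP had more RNA for Timd4, Fabp2 and Epb41l3 and less for Plac8, Lsp1, Napsa, Ccr2 and Ly6c2, by 4.19 to 8.97-fold. The threshold, an adjusted p of 0.05 after Benjamini-Hochberg correction in limma, was passed by 16 of 22180 genes (0.0721%), with 7 higher (0.0316%) and 9 lower (0.0406%) in GFP-plus cells. Of the 16 genes, 13 differed by at least 1 on the log2 scale. In all 16 the values of the 6 GFP-plus and the 6 GFP-minus arrays did not overlap, which held for 202 of all genes (0.911%; 120 higher, 0.541%, and 82 lower, 0.37%). The calls were chosen on these same arrays, so the lack of overlap adds no support. The same holds for like differences in the 2 populations among the 16, which the pooled fit favours. At an adjusted p of 0.1 the count was 113 (0.509%), with 73 higher (0.329%) and 40 lower (0.18%). An unadjusted p under 0.05 was reached by 2760 genes (12.4%), 1935 on the higher side (8.72%) and 825 on the lower side (3.72%). When the mean of T and innate lymphocyte markers was added as a covariate, no gene passed in limma, 3319 genes reached an unadjusted p under 0.05, and all 16 differences kept their direction with adjusted p-values from 0.0552 to 0.123. With the covariate Plac8 was at -3.26 ± 0.39 and Timd4 at 3.21 ± 0.57, each with a larger error than without it. Lsp1 was at -2.70 ± 0.37 and Epb41l3 at 2.33 ± 0.34, also with larger errors. Ccr2, at -1.69 ± 0.27, and Emp3, at -1.54 ± 0.21, were closer to 0 than without the covariate. The part of lymphocyte content in these differences was not tested.

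**Figure D1:**
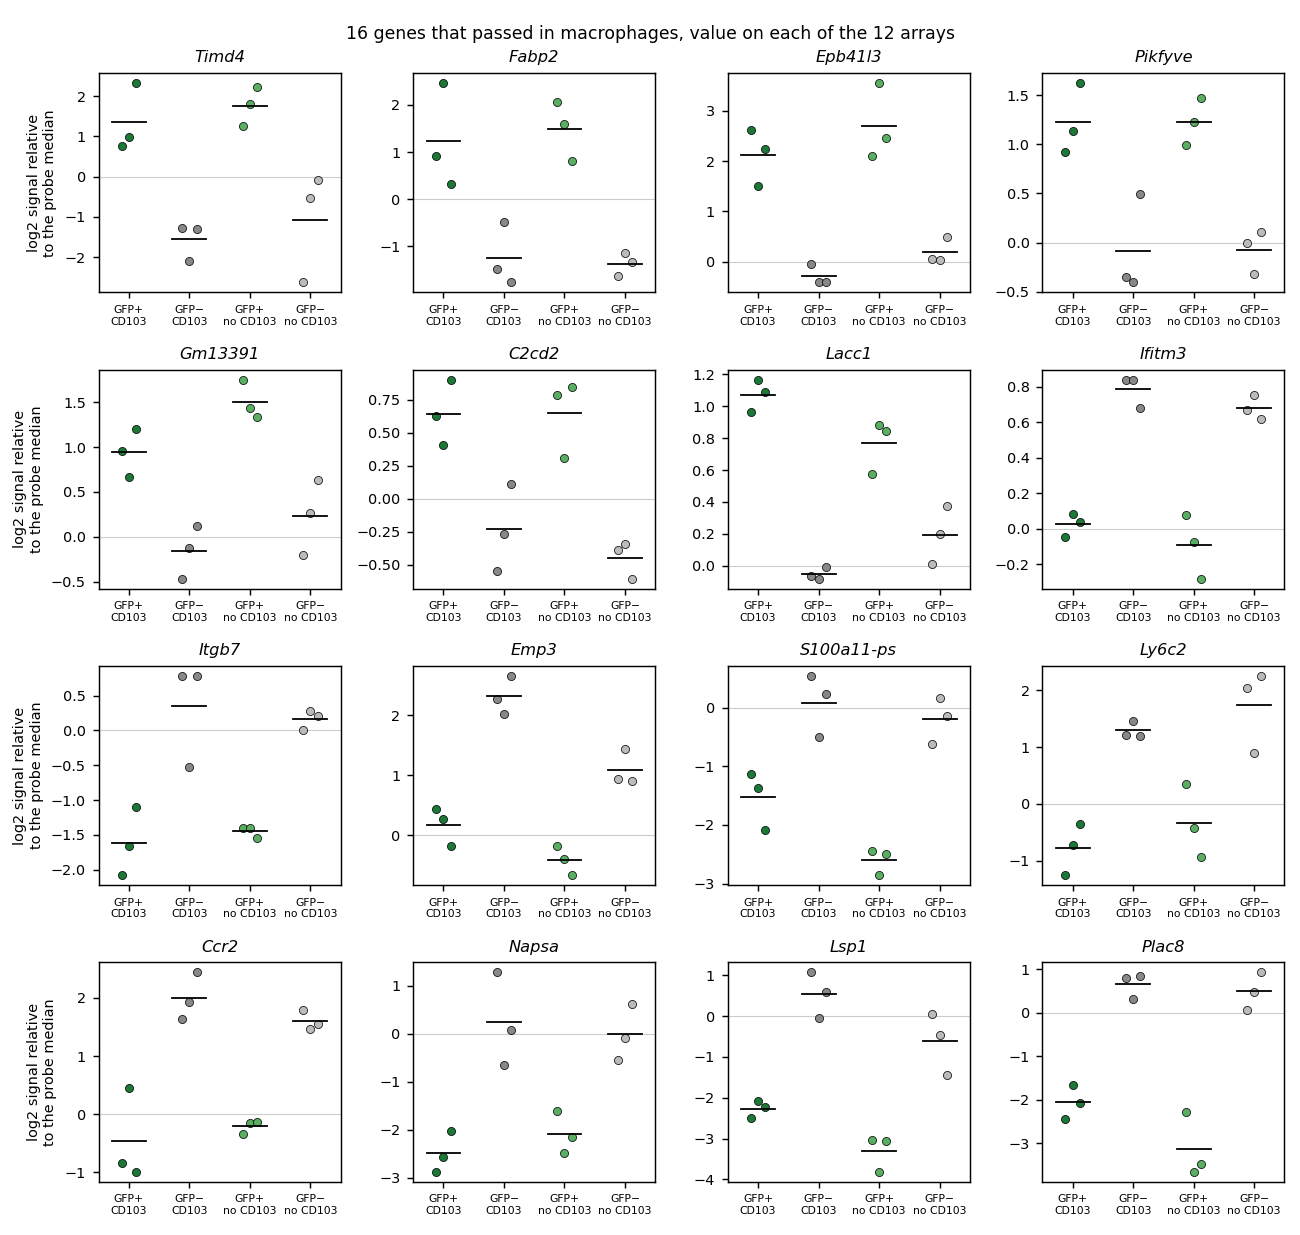
Each panel shows 1 of the 16 genes that passed, with 1 point per array and a bar at the mean of 3 arrays, as the log2 value relative to the probe's median over 18 arrays. Green points are GFP-plus and grey points GFP-minus macrophages, with and without CD103. No GFP-plus point overlaps a GFP-minus point in these genes, and Plac8 shows the widest separation, with GFP-plus arrays at -1.67 or below and GFP-minus arrays at 0.05 or above.

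Among the genes that were higher, Timd4 encodes Tim-4, the phosphatidylserine receptor of resident macrophages. Its values were 0.76, 1.53 and 2.33 (lowest, median and highest of 6) on GFP-plus arrays, against -2.63, -1.29 and -0.10 on GFP-minus arrays. The groups did not overlap, and the GFP-minus arrays were spread more widely than the GFP-plus ones. Timd4 rose by 2.88 ± 0.43 (SE, 7.38-fold; limma, adjusted p = 0.0477), with 2.91 in the macrophages with CD103 and 2.86 in those without.

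Epb41l3 encodes a protein of the band-4.1 family, which ties the cortical cytoskeleton to the plasma membrane. It lay at 1.50, 2.35 and 3.54 on GFP-plus arrays and at -0.41, 0.00 and 0.49 on GFP-minus arrays (lowest, median, highest). The gap between the groups was open in both populations. Epb41l3 rose by 2.45 ± 0.25 (5.47-fold; limma, adjusted p = 0.00448), the smallest adjusted p among the rises.

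Pikfyve encodes the lipid kinase that makes phosphatidylinositol 3,5-bisphosphate on endosomes and lysosomes. Its GFP-plus arrays lay at 0.92, 1.18 and 1.62, against -0.40, -0.16 and 0.50 on GFP-minus arrays, a rise of 1.31 ± 0.18 (2.48-fold; limma, adjusted p = 0.0328). The 2 populations gave nearly the same difference, 1.31 with CD103 and 1.30 without. Lacc1, which encodes a laccase-domain enzyme of macrophage metabolism, lay at 0.58, 0.92 and 1.17 on GFP-plus arrays and at -0.08, 0.00 and 0.37 on GFP-minus arrays. It rose by 0.85 ± 0.12 (1.80-fold; limma, adjusted p = 0.0336). Its difference was 1.12 in the macrophages with CD103 and 0.57 in those without, and this gap had an unadjusted interaction p of 0.0135 and did not pass (limma, adjusted p = 0.981). Gm13391, annotated as a long non-coding RNA, lay at 0.67, 1.27 and 1.75 on GFP-plus arrays and at -0.47, 0.00 and 0.64 on GFP-minus arrays, and rose by 1.19 ± 0.17 (2.28-fold; limma, adjusted p = 0.0328). Its groups were separated by 0.67 against 0.64, the narrowest margin among the rises. C2cd2, which encodes a protein with a C2 domain, lay at 0.31, 0.71 and 0.90 on GFP-plus arrays and at -0.61, -0.37 and 0.11 on GFP-minus arrays. It rose by 0.99 ± 0.15 (1.98-fold; limma, adjusted p = 0.0445). C2cd2 was the rise that passed under the fewest of 24 other settings, 9, while Epb41l3 passed under 22, Fabp2 and Gm13391 under 13, Timd4 under 12, Pikfyve under 11 and Lacc1 under 10.

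Fabp2, the fatty acid binding protein gene of small intestinal enterocytes, was the 1 gene of the enterocyte list that passed. It lay at 0.32, 1.26 and 2.46 on GFP-plus arrays, against -1.77, -1.40 and -0.48 on GFP-minus arrays. It rose by 2.66 ± 0.37 (6.34-fold; limma, adjusted p = 0.0328), with 2.47 in macrophages with CD103 and 2.85 in those without. Of the 38 measured enterocyte genes 21 lay above 0, with a median of 0.02, against 52.1% of all genes above 0. An unadjusted p under 0.05 was reached by 7 on the higher side (8.72% of all genes) and 1 on the lower side (3.72%). Rbp2, the retinol binding protein gene of enterocytes, was at 2.20 ± 0.41 and Fabp1 at 1.93 ± 0.54, and neither passed (limma, adjusted p = 0.075 and 0.19). The Rbp2 values did not overlap, with -0.14 as the lowest GFP-plus and -0.36 as the highest GFP-minus array. The mean of the enterocyte list lay between -0.06 and 0.28 on GFP-plus arrays and between -0.30 and 0.16 on GFP-minus arrays, which overlap. Whether the Fabp2 RNA was made by the macrophages or carried by them was not tested. None of 20 genes of secretory epithelium passed, none reached an unadjusted p under 0.05, and their median was 0.03.

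Among the genes that were lower, 4 belong to the monocyte list. Plac8, a gene of myeloid cells that is high in inflammatory monocytes, lay at -3.65, -2.36 and -1.67 on GFP-plus arrays, against 0.05, 0.65 and 0.93 on GFP-minus arrays. The groups were far apart in both populations. Plac8 fell by 3.16 on the log2 scale (SE 0.29, 8.97-fold; limma, adjusted p = 0.00448), the largest difference of the 16. It was at -2.71 in the macrophages with CD103 and -3.62 in those without, and it was the only gene that passed in the macrophages without CD103 alone.

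Ccr2 encodes the chemokine receptor that brings monocytes out of the bone marrow and into tissue. It lay at -0.99, -0.25 and 0.45 on GFP-plus arrays and at 1.46, 1.71 and 2.44 on GFP-minus arrays, and fell by 2.14 (SE 0.25, 4.40-fold; limma, adjusted p = 0.0135). Ly6c2 encodes the Ly6C antigen of inflammatory monocytes. Its values were -1.25, -0.57 and 0.35 on GFP-plus arrays and 0.90, 1.34 and 2.25 on GFP-minus arrays, a fall of 2.07 (SE 0.27, 4.19-fold; limma, adjusted p = 0.0293) that came out at -2.07 in each population. Ifitm3, which encodes a membrane protein that blocks virus entry, showed the tightest groups: -0.28, -0.01 and 0.08 on GFP-plus arrays against 0.62, 0.72 and 0.84 on GFP-minus arrays. It fell by 0.77 (SE 0.08, 1.70-fold; limma, adjusted p = 0.00448).

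Of the 17 measured monocyte genes 4 fell (0.0406% of all genes), 13 did not pass and 13 lay below 0, while 52.1% of all genes lay above 0. An unadjusted p under 0.05 was reached by 8 on the lower side (3.72% of all genes) and 0 on the higher side (8.72%). Their median was -0.67, against a median of 0.0089 over all genes. In 6 of the 17 all GFP-plus arrays lay below all GFP-minus arrays (0.37% of all genes). The list mean ran from -0.42 to 0.04 on GFP-plus arrays and from 0.28 to 1.13 on GFP-minus arrays, with no overlap. The median was -0.27 in the macrophages with CD103 and -0.76 in those without, and -0.75 without the 3 arrays of low weight. The list was drawn up with earlier results of these samples known and is not independent evidence of its direction.

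The other falls were not monocyte list members. Lsp1 encodes a leukocyte protein that binds F-actin. It lay at -3.81, -2.77 and -2.07 on GFP-plus arrays, against -1.43, 0.00 and 1.07 on GFP-minus arrays, and fell by 2.75 (SE 0.27, 6.72-fold; limma, adjusted p = 0.00448). Emp3, which encodes a small membrane protein with 4 membrane-spanning stretches, lay at -0.66, -0.18 and 0.44 on GFP-plus arrays and at 0.90, 1.72 and 2.65 on GFP-minus arrays. It fell by 1.82 (SE 0.18, 3.53-fold; limma, adjusted p = 0.00448). Emp3 and Lacc1 were the genes that passed both over the 2 populations and in the macrophages with CD103 alone.

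Napsa encodes the aspartic protease napsin A. It lay at -2.88, -2.33 and -1.61 on GFP-plus arrays and at -0.65, 0.00 and 1.28 on GFP-minus arrays, a fall of 2.41 (SE 0.34, 5.30-fold; limma, adjusted p = 0.0336). Itgb7 encodes the beta chain that pairs with the CD103 alpha chain or with the alpha-4 chain in gut-homing integrins. It lay at -2.08, -1.47 and -1.10 on GFP-plus arrays and at -0.53, 0.25 and 0.78 on GFP-minus arrays. Itgb7 fell by 1.78 (SE 0.24, 3.44-fold; limma, adjusted p = 0.0299), by about as much in the macrophages without CD103, -1.61, as in those with it, -1.96. The pseudogene S100a11-ps lay at -2.86, -2.27 and -1.12 on GFP-plus arrays and at -0.61, 0.01 and 0.54 on GFP-minus arrays, and fell by 2.01 (SE 0.25, 4.03-fold; limma, adjusted p = 0.0194). It shares sequence with its parent gene S100a11, so its probe may read both. S100a11 itself was at -1.13 ± 0.20 and S100a4, a calcium-binding protein gene of motile cells, at -2.18 ± 0.37, and neither passed (limma, adjusted p = 0.0645 each). Of the 15 S100 genes none passed, 4 had an unadjusted p under 0.05 on the lower side (3.72% of all genes) and 10 lay below 0.

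To show the regulatory DNA of genes that moved together, promoters are printed for the 2 largest rises and the 2 largest falls among the 8 called genes with a single start in RefSeq, of 13 with an entry. Each sequence runs 5′ to 3′ on the gene's strand, from 250 bases before the start to 50 after it. The build is GRCm38.p6, and capitals mark a motif match. The windows are chr11:46810549-46810848, plus strand, for Timd4; chr3:122894822-122895121, plus strand, for Fabp2; chr9:124101933-124102232, plus strand, for Ccr2; and chr15:102231886-102232185, minus strand, for Itgb7.
Timd4: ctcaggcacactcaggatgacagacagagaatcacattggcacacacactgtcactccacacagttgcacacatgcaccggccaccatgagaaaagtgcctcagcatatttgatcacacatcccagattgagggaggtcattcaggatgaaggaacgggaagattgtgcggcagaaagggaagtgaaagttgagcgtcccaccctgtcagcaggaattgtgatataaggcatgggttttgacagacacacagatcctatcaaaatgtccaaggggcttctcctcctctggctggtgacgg
Fabp2: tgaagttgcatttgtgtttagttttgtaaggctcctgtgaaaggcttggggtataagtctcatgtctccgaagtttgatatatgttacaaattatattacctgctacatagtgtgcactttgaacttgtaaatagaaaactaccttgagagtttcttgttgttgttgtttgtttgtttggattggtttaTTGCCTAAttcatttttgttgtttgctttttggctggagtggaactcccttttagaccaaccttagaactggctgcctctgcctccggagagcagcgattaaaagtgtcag
Ccr2: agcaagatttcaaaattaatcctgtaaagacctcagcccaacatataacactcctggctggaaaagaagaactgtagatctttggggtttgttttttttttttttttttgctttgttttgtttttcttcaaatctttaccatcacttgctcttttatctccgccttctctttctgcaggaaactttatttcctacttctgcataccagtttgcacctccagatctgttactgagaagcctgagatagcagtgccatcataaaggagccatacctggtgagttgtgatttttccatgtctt
Itgb7: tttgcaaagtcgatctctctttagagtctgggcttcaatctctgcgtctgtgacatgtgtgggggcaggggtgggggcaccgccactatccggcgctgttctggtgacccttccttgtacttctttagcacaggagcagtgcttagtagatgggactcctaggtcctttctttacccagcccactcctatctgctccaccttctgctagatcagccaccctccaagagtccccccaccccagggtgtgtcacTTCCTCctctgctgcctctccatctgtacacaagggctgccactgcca

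Each window was searched on both strands for 4 motifs of factors at work in myeloid cells: GAGGAA for PU.1, TGTGGT for RUNX, TTGCNNAA for C/EBP and the E-box CACGTG. Fabp2 held 1 C/EBP match and Itgb7 1 PU.1 match on the strand opposite to the one printed. The Timd4 and Ccr2 windows held none of the 4. Over the 32851 promoters of the same length, 28.3% held the PU.1 motif, 16.8% RUNX, 10.8% C/EBP and 7.15% the E-box. A match describes letters in this window and is not a binding site, and no match says nothing about the factor.

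The list of genes of resident macrophage maturation ran the other way from the monocyte list. Of its 28 measured genes 1 rose (Timd4), none fell and 27 did not pass, while 23 lay above 0 (52.1% of all genes), with a median of 0.54. An unadjusted p under 0.05 was reached by 13 on the higher side (8.72% of all genes) and 3 on the lower side (3.72%). Cx3cr1, the fractalkine receptor gene of resident intestinal macrophages, lay at 0.47, 0.73 and 0.82 on GFP-plus arrays and at -0.24, 0.00 and 0.30 on GFP-minus arrays. These groups did not overlap, and the difference of 0.67 ± 0.11 just missed the threshold (limma, adjusted p = 0.0589). Mertk, a receptor kinase gene for the uptake of dying cells, was at 1.76 ± 0.35 and Adamdec1, a metalloprotease gene of intestinal macrophages, at 1.20 ± 0.24 (limma, adjusted p = 0.0899 each). Cd209a, a lectin gene of the same list, was at -1.23 ± 0.23 (limma, adjusted p = 0.0775). The list mean ran from 0.56 to 1.03 on GFP-plus arrays and from -0.30 to 0.52 on GFP-minus arrays. Without the 3 arrays of low weight the median was 0.28, and 3 genes rose. The list holds Timd4, which was called on these same arrays. Like the monocyte list, it was drawn up with earlier results of these samples known and is not independent evidence of its direction.

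**Figure D2:**
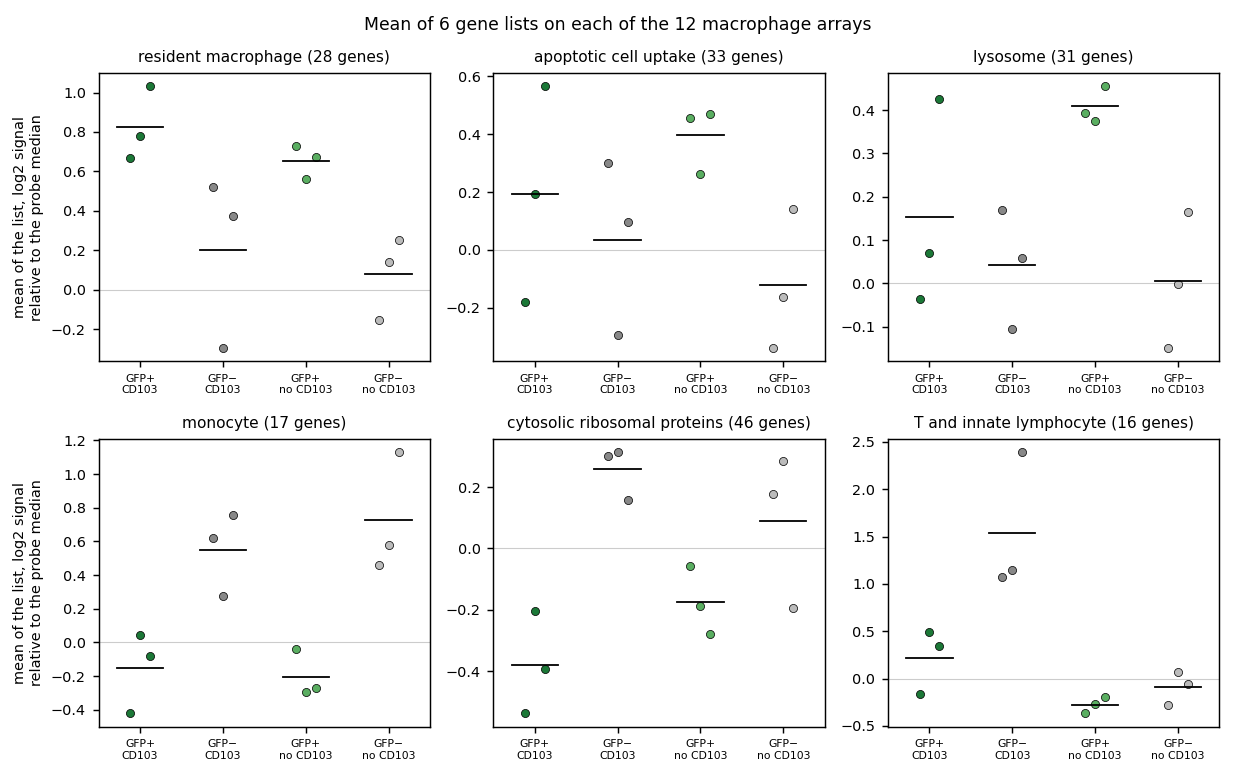
Mean log2 value, relative to the probe median, of the measured genes of 6 lists on each of 12 arrays. Green points are GFP-plus and grey points GFP-minus macrophages, and bars are means of 3 arrays. The monocyte list separates the groups, at -0.42 to 0.04 on GFP-plus arrays and 0.28 to 1.13 on GFP-minus arrays. The resident macrophage list does so by a narrower margin, at 0.56 to 1.03 on GFP-plus arrays and -0.30 to 0.52 on GFP-minus arrays. The lymphocyte list is highest on 1 GFP-minus array at 2.40. The lists were chosen with earlier results of these data known, so a separation adds no support.

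Genes for the recognition, uptake and digestion of dying cells were mostly above 0, and few passed. Each count below stands against all genes, of which 52.1% lay above 0. An unadjusted p under 0.05 on the higher side was reached by 8.72% of all genes. Of 33 uptake genes Timd4 rose, 32 did not pass and 23 lay above 0, with a median of 0.18. The uptake median was 0.033 with CD103 and 0.36 without, 0.087 without GFP-plus CD103 CD11b CD64 replicate 3, 0.29 without replicate 1 of that group and 0.11 without the 3 arrays of low weight. The integrin gene Itgav, whose protein binds bridging molecules on dying cells, was at 1.01 ± 0.21, and the scavenger receptor gene Stab1 at 0.90 ± 0.19 (limma, adjusted p = 0.103 and 0.105). Of 31 lysosome genes none passed, 26 lay above 0 and 10 had an unadjusted p under 0.05 on the higher side, with a median of 0.24. Cd63, a tetraspanin gene of late endosomes, was at 0.50 ± 0.09 and Mcoln1, which encodes a calcium channel of lysosomes, at 0.84 ± 0.20 (limma, adjusted p = 0.075 and 0.14). Of 19 lipid handling genes none passed, 6 had an unadjusted p under 0.05 on the higher side and 16 lay above 0, with a median of 0.35. Abca1, the cholesterol exporter gene, was at 1.20 ± 0.26 (limma, adjusted p = 0.115). Of 18 cholesterol synthesis genes none passed, 2 had an unadjusted p under 0.05 on the higher side and 12 lay above 0, with a median of 0.11 that was -0.02 without GFP-plus CD103 CD11b CD64 replicate 3 and 0.31 without replicate 1 of that group. It was 0.0078 in macrophages with CD103 and 0.56 in those without. Hsd17b7, an enzyme gene of that pathway, was at 1.23 ± 0.25 (limma, adjusted p = 0.0918), with 0.65 in macrophages with CD103 and 1.81 in those without.

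The 33 measured actin and cortex genes went both ways: Epb41l3 rose, Lsp1 fell, 17 lay above 0 and 16 below, with a median of 0.03 that was -0.12 with CD103 and 0.18 without. An unadjusted p under 0.05 was reached by 8 on the higher side (8.72% of all genes) and 6 on the lower side (3.72%). Fblim1, an adhesion adaptor gene, was at 1.45 ± 0.23, the unconventional myosin gene Myo9a at 1.76 ± 0.31 and the actin monomer binding gene Tmsb10 at -0.99 ± 0.16 (limma, adjusted p = 0.056, 0.0724 and 0.0589). In 4 genes of the list all GFP-plus arrays lay below all GFP-minus arrays (0.37% of all genes), and in 1 all lay above (0.541%).

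Genes of the cytosolic ribosome lay mostly below 0, without any gene passing, while 52.1% of all genes lay above 0. Of 46 measured genes 41 lay below 0 and 31 had an unadjusted p under 0.05 on the lower side, against 3.72% of all genes, with a median of -0.48. In 7 all GFP-plus arrays lay below all GFP-minus arrays (0.37% of all genes). The median was -0.66 in macrophages with CD103 and -0.31 in those without. Rpsa, a small-subunit gene, lay at -1.19, -0.88 and -0.60 on GFP-plus arrays and at -0.41, 0.04 and 0.38 on GFP-minus arrays, a difference of -0.91 ± 0.15 (limma, adjusted p = 0.0589). Ribosomal genes have many processed pseudogenes, so probes may read more than 1 copy. Of 28 translation factor genes none passed, and 3 had an unadjusted p under 0.05 on the higher side (8.72% of all genes) and 9 on the lower side (3.72%). Of the 28, 19 lay below 0, with a median of -0.29 that was -0.16 without GFP-plus CD103 CD11b CD64 replicate 1. The translation factor median was -0.37 in macrophages with CD103 and -0.085 in those without. The elongation factor gene Eef1g was at -0.84 ± 0.14 and the initiation factor gene Eif3f at -0.78 ± 0.14 (limma, adjusted p = 0.0589 and 0.0645). Of 26 respiratory chain genes none passed, and 8 had an unadjusted p under 0.05 on the lower side (3.72% of all genes). Of the 26, 23 lay below 0, with a median of -0.38 that was -0.21 without the same array and -0.22 without all 3 arrays of low weight. The respiratory chain median was -0.68 in macrophages with CD103 and -0.12 in those without. The mean of the respiratory chain genes ran from -1.53, on GFP-plus CD103 CD11b CD64 replicate 1, to 0.12 over the GFP-plus arrays, against -0.13 to 0.23 on GFP-minus arrays. In the macrophages without CD103 it lay between -0.088 and 0.12 on GFP-plus arrays and between 0.073 and 0.23 on GFP-minus arrays, which overlap. The part of array quality in these 3 lists was not tested.

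**Figure D3:**
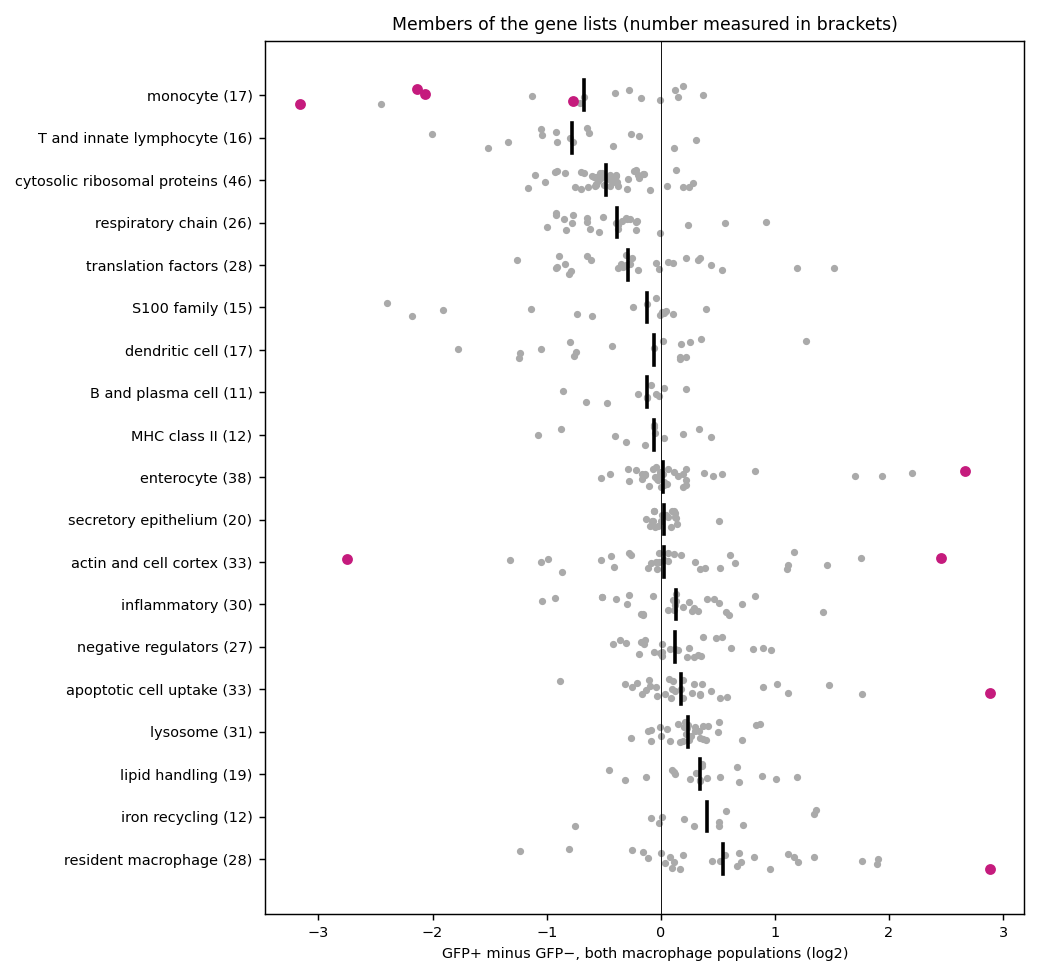
Each row is a gene list, and each point is the log2 difference of 1 measured gene, GFP-plus minus GFP-minus macrophages. Larger coloured points are genes that passed, grey points did not pass, and the black bar is the list median. The T and innate lymphocyte (median -0.78), monocyte (-0.67) and ribosomal (-0.48) lists lie to the left of 0. The resident macrophage (0.54), iron recycling (0.40) and lipid handling (0.35) lists lie to the right.

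Lists of inflammatory response showed no gene that passed. Their counts stand against all genes, of which 52.1% lay above 0. An unadjusted p under 0.05 was reached by 8.72% of all genes on the higher side and 3.72% on the lower side. Of 30 inflammatory genes 6 had an unadjusted p under 0.05 on the higher side and 4 on the lower side, with a median of 0.13. The cytokine gene Il1a was at 0.83 ± 0.18, the chemokine gene Cxcl10 at 0.60 ± 0.14 and the chemokine gene Ccl5 at -1.04 ± 0.28 (limma, adjusted p = 0.114, 0.143 and 0.183). Of 27 genes for negative regulators of inflammation 18 lay above 0, with a median of 0.12, and Cd274, which encodes PD-L1, was at 0.81 ± 0.19 (limma, adjusted p = 0.132). Of 22 interferon-stimulated genes 14 lay above 0 and 5 had an unadjusted p under 0.05 on the higher side, with a median of 0.10. The interferon median was -0.049 with CD103 and 0.27 without, and 0.21 without GFP-plus CD103 CD11b CD64 replicate 1. Of 12 MHC class II genes 4 lay above 0, with a median of -0.06 that lay between -0.08 and -0.02 with single arrays left out. Of 12 iron genes 9 lay above 0, with a median of 0.40 that was 0.12 with CD103, 0.56 without, and 0.23 without GFP-minus CD11b CD64 replicate 1. The 18 complement genes had a median of 0.077. The 26 cell cycle genes had a median of 0.15, which was 0.044 without GFP-plus CD103 CD11b CD64 replicate 3. Of 24 eicosanoid genes 16 lay above 0, with a median of 0.25, and its members went both ways. Hpgds, the prostaglandin D synthase gene, was at 1.27 ± 0.24, and Alox5ap, which encodes the protein that hands arachidonic acid to 5-lipoxygenase, at -2.01 ± 0.42 (limma, adjusted p = 0.0775 and 0.103). The 11 Fc receptor genes and the 17 MS4A genes had medians of -0.056 and -0.064, with none passing. With single arrays left out the Fc receptor median lay between -0.11 and -0.02 and the MS4A median between -0.10 and 0.04.

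Markers of other cell types that the gates could hold were read on the same arrays. Among all genes, 52.1% lay above 0. The share with an unadjusted p under 0.05 was 8.72% on the higher side and 3.72% on the lower side. Of 16 measured T and innate lymphocyte genes none passed, 14 lay below 0 and 5 had an unadjusted p under 0.05 on the lower side, with a median of -0.78 that was -0.51 without GFP-minus CD103 CD11b CD64 replicate 3. The list mean lay between -0.37 and 0.49 on GFP-plus arrays, against -0.28 to 2.40 on GFP-minus arrays, and the highest was GFP-minus CD103 CD11b CD64 replicate 3. The shift lay in the macrophages with CD103, where the median was -1.15 and the list mean was 1.08, 1.14 and 2.40 on the GFP-minus arrays. In the macrophages without CD103 it was -0.23, with list means from -0.37 to -0.20 on GFP-plus arrays and from -0.28 to 0.07 on GFP-minus arrays. There Plac8 was at -3.62, Lsp1 at -2.69 and Ccr2 at -1.81, and Timd4 at 2.86 and Epb41l3 at 2.50. Emp3 was at -1.51 there and at -2.13 with CD103, and Lacc1 at 0.57 there and at 1.12 with CD103. The part of lymphocyte content in these differences was not tested. Cd7, a lymphocyte surface protein gene, was at -2.00 ± 0.57 over both populations and did not pass (limma, adjusted p = 0.194), with -3.61 with CD103 and -0.40 without. Of 17 dendritic cell genes none passed, and 1 reached an unadjusted p under 0.05 on the higher side and 6 on the lower side, with a median of -0.06. Of these genes 8 lay above 0 and 9 below. Ccr7, the receptor gene for migration to lymph nodes, was at -1.78 ± 0.59 and Cadm1 at 1.27 ± 0.43 (limma, adjusted p = 0.248 and 0.256). Cd209a, which is in this list too, was at -1.23 ± 0.23 (limma, adjusted p = 0.0775). The B and plasma cell list (11 genes, median -0.12), the neutrophil list (14, -0.030), the mast cell and eosinophil list (11, -0.044), the stroma and endothelium list (16, 0.049) and the macrophage list (19, 0.055) held no gene that passed. With single arrays left out these 5 medians lay between -0.22 and 0.14. Of the 19 macrophage genes 6 had an unadjusted p under 0.05 on the higher side and 2 on the lower side. The macrophage list median was -0.064 with CD103 and 0.21 without. The erythroid list had 1 measured gene. Since the values are relative to a median, none of these markers can be read as present or at 0 in the cells.

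The pooled comparison was set beside each population alone, from a fit of the same 12 arrays with 1 mean per group. The macrophages with CD103 gave 5 genes that passed (0.0225% of 22180): Gnaq and Lacc1 rose (0.00902%), and Septin1, Emp3 and Cd7 fell (0.0135%). The macrophages without CD103 gave 1 (0.00451%), Plac8. The median SE of a gene's difference was 0.156 in the pooled comparison and 0.220 within a population. Of the 22180 genes 12769 (57.6%) had the same sign in both populations, whose arrays are all different. Over genes, which are not independent replicates, the differences of the 2 populations had Pearson's r = 0.363 and Spearman's rho = 0.271.

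**Figure D4:**
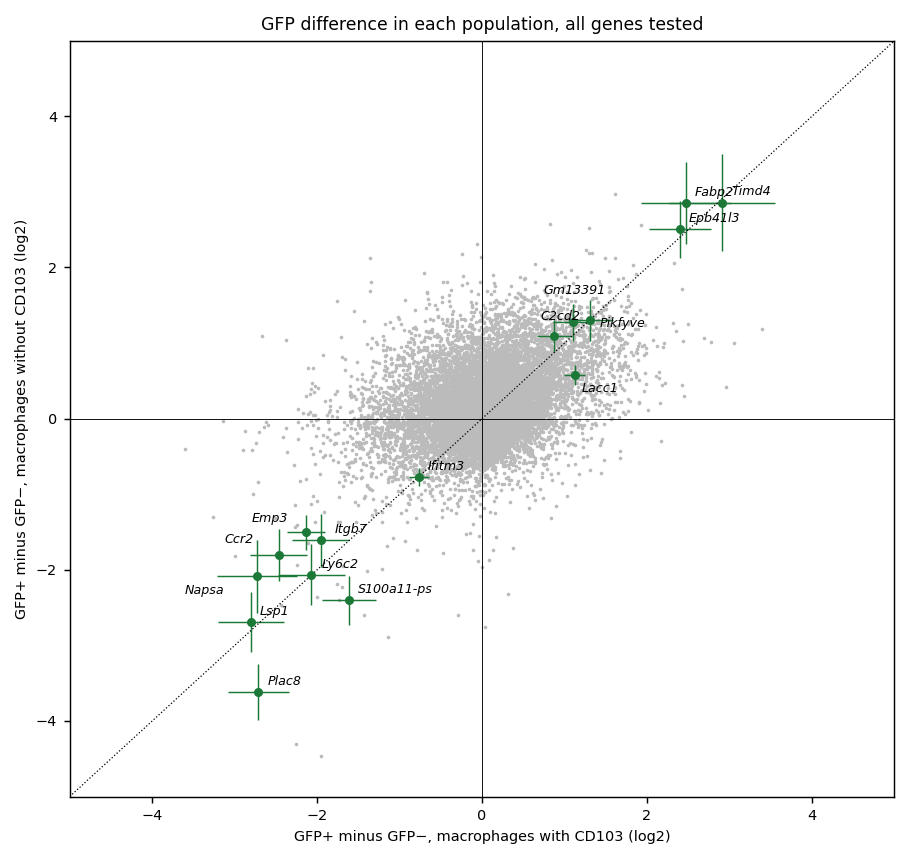
Each point is a gene, placed by its log2 difference, GFP-plus minus GFP-minus, in macrophages with CD103 (horizontal) and without (vertical). Green points with bars of 1 SE are the 16 genes that passed over both, and the dotted line marks equal differences. The named genes that passed lie near the diagonal, from Plac8 at -2.71 and -3.62 to Timd4 at 2.91 and 2.86. The fit that chose them pooled both populations on these same arrays, which favours genes with like differences. Their place near the diagonal adds no support for a shared effect.

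Genes picked in 1 population were then read in the other. The ranking by p used a residual spread shared by all 12 arrays, so the choice of genes was not independent of the spread in the other population, and the counts are a description. Of the 100 genes of smallest p in the macrophages with CD103, 87 had the same sign in those without, and their median difference turned to that sign was 0.496, against 1.47 where they were picked. Of the 100 picked in the macrophages without CD103, 85 had the same sign in those with it, at 0.485 against 1.21. Of 500 genes picked the same way, 416 (83.2%) and 399 (79.8%) kept their sign.

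No gene passed a test of whether the GFP difference itself differed between the populations (interaction term, limma, lowest adjusted p = 0.370), and 934 genes had an unadjusted p under 0.05 (4.21%). The 5 genes of smallest interaction p were Septin1, Gnaq, Antxr1, Dclre1b and 2610524H06Rik. Dclre1b, a DNA repair nuclease gene, was at -2.04 with CD103 and 0.67 without, and 2610524H06Rik at -2.67 with CD103 and 1.09 without. Septin1, a cytoskeletal GTPase gene, was at -1.99 with CD103 and at 0.00 without, to 2 decimals. Gnaq, which encodes a G protein alpha subunit, was at 2.16 with CD103 and 0.20 without, and the anthrax toxin receptor gene Antxr1 at -0.10 with CD103 and 1.09 without. Ms4a14 was at 3.40 and 1.18, the secreted phospholipase gene Pla2g2d at 2.78 and 1.02, and the actin-severing gene Gsn at -1.64 and -0.09, each given with CD103 and then without. Over both populations these were at 2.29 ± 0.51, 1.90 ± 0.41 and -0.86 ± 0.30 and did not pass (limma, adjusted p = 0.12, 0.114 and 0.261).

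The pooled count moved with the array set. Without GFP-minus CD11b CD64 replicate 3 it was 388 genes (270 higher, 118 lower), without GFP-plus CD103 CD11b CD64 replicate 1 it was 102 (79 and 23), and without any other single array between 7 and 15. All 16 differences kept their direction in every such fit. Quantile normalization gave 66 genes, 26 higher and 40 lower, array weights gave 126, 92 higher and 34 lower, and scaling to a common interquartile range gave 24, 8 higher and 16 lower. Plac8, Lsp1, Emp3 and Epb41l3 each passed under 22 of 24 other settings.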

How the data were processed

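RNA of sorted macrophages was measured on 12 of the 18 arrays of the series. The deposited values were taken as log2, each centred on its probe's median over 18 arrays. The base was inferred from the values, since 1 probe spanned 10.1 units. The sources used here do not give the authors' software or normalization. Per the labels' protocols, the NuGEN WT Ovation Pico kit amplified the RNA. Of 33793 probes, 23521 had 1 gene symbol and were averaged into 22180 genes, 1082 of them with several probes. The 10272 probes with several symbols or none were tested apart.

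An additive model of population and GFP was fitted with limma 3.58.1 (R 4.3.3) and its moderated variances, with 9 residual and 2.01 prior degrees of freedom. Two-sided p-values were adjusted by Benjamini-Hochberg over all 22180 genes, and the threshold was 0.05. An interaction was tested with 1 mean per group. Alternatives were other normalizations, array weights, replicate blocks, filters, a lymphocyte covariate and leaving out arrays. A planned brightness filter needs absolute signal, so a filter on spread was run instead.

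The rule for named genes took up to 15 rises and 15 falls that passed, the 7 sort markers, the 5 genes of smallest interaction p, up to 4 members of each list by p, and genes called in either population in earlier work. Members, lists and this rule were chosen with earlier results of these data known. Precision is limited by having 3 arrays per group.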

Additional observations from a re-analysis of the deposited data

Results flagged for a closer look

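Of 272 sets of 6 values (named genes, GFP-plus or GFP-minus macrophages), 14 had 1 array far from the other 5 by Dixon's test, where chance gives about 1 in 20. None was a gene that passed. GFP-plus CD103 CD11b CD64 replicate 1, the array of lowest weight, was the distant array in 6: Mertk at 0.356, Ms4a18 at -0.27, Cox7a2 at -1.55, Ndufa2 at -2.51, Eif3k at -1.81 and Sdc1 at -1.90. For Mertk the nearest other GFP-plus array was at 1.73, and for Ndufa2 at -0.58. GFP-minus CD103 CD11b CD64 replicate 3, the array of highest lymphocyte marker mean, was distant in 4: Pou2af1, a B cell coactivator gene, at 2.41, Siglecf at -2.27, Dcn at 1.97 and Atp5o at -0.045. The others were Stab1 at 1.03 on GFP-minus CD103 CD11b CD64 replicate 1, Fcer1a at 0.761 on replicate 2 of that group, Mylip at -0.17 on GFP-plus CD11b CD64 replicate 2 and Rpl28 at -0.21 on GFP-minus CD11b CD64 replicate 3.

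Among the 10272 probes without a single gene symbol, which no comparison of genes used, 3 (0.0292%) passed in limma, adjusted over these probes, all higher in GFP-plus macrophages. Probe 17327907 was at 1.87 (limma, adjusted p = 0.0484) and probe 17253166 at 1.40 (0.0484), and neither has a symbol. Probe 17300839, shared by Mphosph8 and Gm16973, was at 1.27 (0.0339).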

How the results depend on the processing

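All 16 differences kept their direction in all 24 other settings. The counts of genes that passed (7 higher and 9 lower) moved more. Higher and lower counts were 26 and 40 after quantile normalization, 8 and 16 after scaling to a common interquartile range, 92 and 34 with array weights, 3 and 6 with 1 mean per group, 12 and 15 with a filter on genes of little spread, and 0 and 0 with the lymphocyte marker covariate. With settings added after the data were seen they were 21 and 12 without the 3 arrays of low weight, 73 and 40 at an adjusted p of 0.1, and 137 and 96 with quantile normalization and array weights together. Robust variances gave 6 and 9, and single probes 7 and 10. Of the 16 calls, 8 were kept without the 3 arrays of low weight, 8 with 1 mean per group and 12 after scaling to a common interquartile range. Without the arrays of low weight Timd4 was the only rise kept (limma, adjusted p = 0.0491), while Epb41l3 was at 0.0527 and Fabp2 and Pikfyve at 0.0822. The replicate numbers were not taken to pair the arrays, since the labels do not say that equal numbers share animals. Of 18 same-numbered pairs 9 correlated above 0.1, with r from -0.138 to 0.337. The 6 pairs of replicate 3 were all among those 9, at 0.142 to 0.337, and 8 of 12 arrays correlated best with an array of their own number, a hint from the data and not from the design. Some pairs of different number also correlated above 0.1, up to r = 0.290. A replicate block across the 4 groups gave 96 and 28 genes, with all 16 calls kept, and a replicate block within population (6 pairs) gave 6 and 1. That block kept 4 of the 16 calls (Timd4, Fabp2, Epb41l3 and Pikfyve) and none of the 9 falls, whose adjusted p-values (limma) lay between 0.0525 for Lsp1 and 0.0933 for Napsa.

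Leaving out 1 array in turn gave 1 to 270 genes higher and 5 to 118 lower. The highest came without GFP-minus CD11b CD64 replicate 3, and the cause was not tested. Without GFP-minus CD11b CD64 replicate 2 there were 1 and 8 genes, without GFP-plus CD11b CD64 replicate 1, 2 or 3 there were 4 and 10, 2 and 5, and 3 and 5, and without GFP-plus CD103 CD11b CD64 replicate 2 or 3 there were 4 and 7, and 2 and 7. Without GFP-minus CD11b CD64 replicate 1 there were 4 and 10, and without GFP-minus CD103 CD11b CD64 replicate 1, 2 or 3 there were 5 and 6, 5 and 10, and 6 and 7. The interaction count was 0 to 1 (limma): Rsl1, Gimap7, Fkbp1b and Gm8005 passed once each.

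Among named genes that did not pass, some differences changed sign (limma). Itgam, at 0.06, was at -0.0066 after quantile normalization, -0.12 without the arrays of low weight and -0.061 to 0.15 with single arrays left out. Fcer1a was at 0.019 without the arrays of low weight and -0.17 to 0.0057 with single arrays left out. Both turned without GFP-minus CD103 CD11b CD64 replicate 2. With the lymphocyte covariate Dclre1b was at 0.24, 2610524H06Rik at 0.53, Fcgr4 at 0.021, Pou2af1 at 0.045, Trpm5 at -0.087 and Siglecf at -0.053. The causes were not tested. The brightness filter was not run. The 3 arrays per group, and the lack of absolute signal, limit what could be detected.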
